A study of Drosophila melanogaster with 19 samples.

Results

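The Dpr and DIP genes of Drosophila melanogaster encode cell surface proteins with immunoglobulin domains, and 32 of them, 21 Dpr genes (dpr1 to dpr21) and 11 DIP genes (DIP-alpha to DIP-lambda), were followed here among the 17558 genes of a count table. They were chosen by their symbols in the FlyBase naming and not by their levels. Dpr proteins take their name from a mutant with a defective proboscis extension response, and DIP stands for Dpr-interacting protein. Each DIP binds a particular set of Dprs across the gap between cells, so that a neuron carrying a DIP can adhere to one carrying a matching Dpr. In the optic lobe, which processes vision in the fly brain, such pairs are known to act in the choice of synaptic layer and partner, and in the survival of some neurons, during development. The brains measured here were adult.

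RNA was sequenced from neurons of adult flies aged 3 to 6 days. Gal4 lines selective for single cell types drove UAS-Red Stinger, a red fluorescent protein that goes to the nucleus, and the labelled cells were collected by fluorescence-activated sorting. The 17 single types were Tm9, Tm5c, Tm5ab, Tm3, Tm2, T5, T3, T2, T1, Mi1, Lawf2, Lawf1, Dm12, Dm8, Dm2, C3 and C2, and the other groups were sorted neurons, titled Elav after a pan-neuronal gene and named as the control, and a mixture of T1 and Tm1, whose line the series text describes as carrying GFP. Each of the 19 groups had 3 libraries, 57 in all. The driver lines themselves are not given in the sources used here, and no group carried a mutation or drug according to the labels.

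Reads assigned to genes ranged from 0.602 to 72.677 M (mega) per library with a median of 21.760 M, and the smallest libraries were those of T2. Levels are counts per M reads (CPM) after TMM scaling, and a mean comes with its SD over n = 3 libraries. The TMM factors of T2 lay between 0.485 and 0.697 against 0.777 to 1.27 in the other groups, and the median log2 difference of T2 from the other types over all genes was -1.26. In 5 sets of genes by exon length, from the shortest to the longest, that median was -1.14, -1.32, -1.10, -0.42 and 0.59, and the 2 sets of longest genes held 18 and 9 of the 32 Dpr and DIP genes. The part of this length trend in their T2 levels was not tested. The neuronal label was checked on elav, nSyb, Syt1 and brp, whose summed level ran from 3991 CPM in T1 to 21195 in T2. Taken singly, elav stood at no less than 429 CPM, nSyb at 1279 and Syt1 at 906, but brp went as low as 18, with a highest level of 4032. The summed level of 7 glial markers ran from 35.7 CPM in Tm3 to 32261 in T1, where all but 148 CPM came from the transporter gene Eaat1, and the glial gene repo stood between 1.51 and 10.4 CPM. The 7 photoreceptor markers summed to 52.7 CPM in Dm12 and 1064 in T1, and the 4 hemocyte markers to at most 3.91. The part of other cells in the levels below was not tested. Since the cells were pooled, fewer cells with a transcript and less transcript per cell cannot be told apart.

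The 2 families were used in different ways by the 17 types. Dpr genes were found in most types and DIP genes in few. A gene was counted as present in a type when it stood at 10 CPM or more in all 3 libraries. By that measure 277 of 357 combinations of a Dpr gene and a type were present, 77.6%, against 26 of 187 for the DIP genes, 13.9%. A Dpr gene was present in a median of 14 types, with a range from 5 to 17, and a DIP gene in a median of 2, with a range from 0 to 7. All 21 Dpr genes reached 100 CPM in their highest type, as did 6 of the 11 DIP genes. Among the Dpr genes, 6 were present in all 17 types (dpr4, dpr7, dpr12, dpr14, dpr19 and dpr21), and 3 DIP genes, DIP-delta, DIP-iota and DIP-lambda, in no type.

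**Figure D1:**
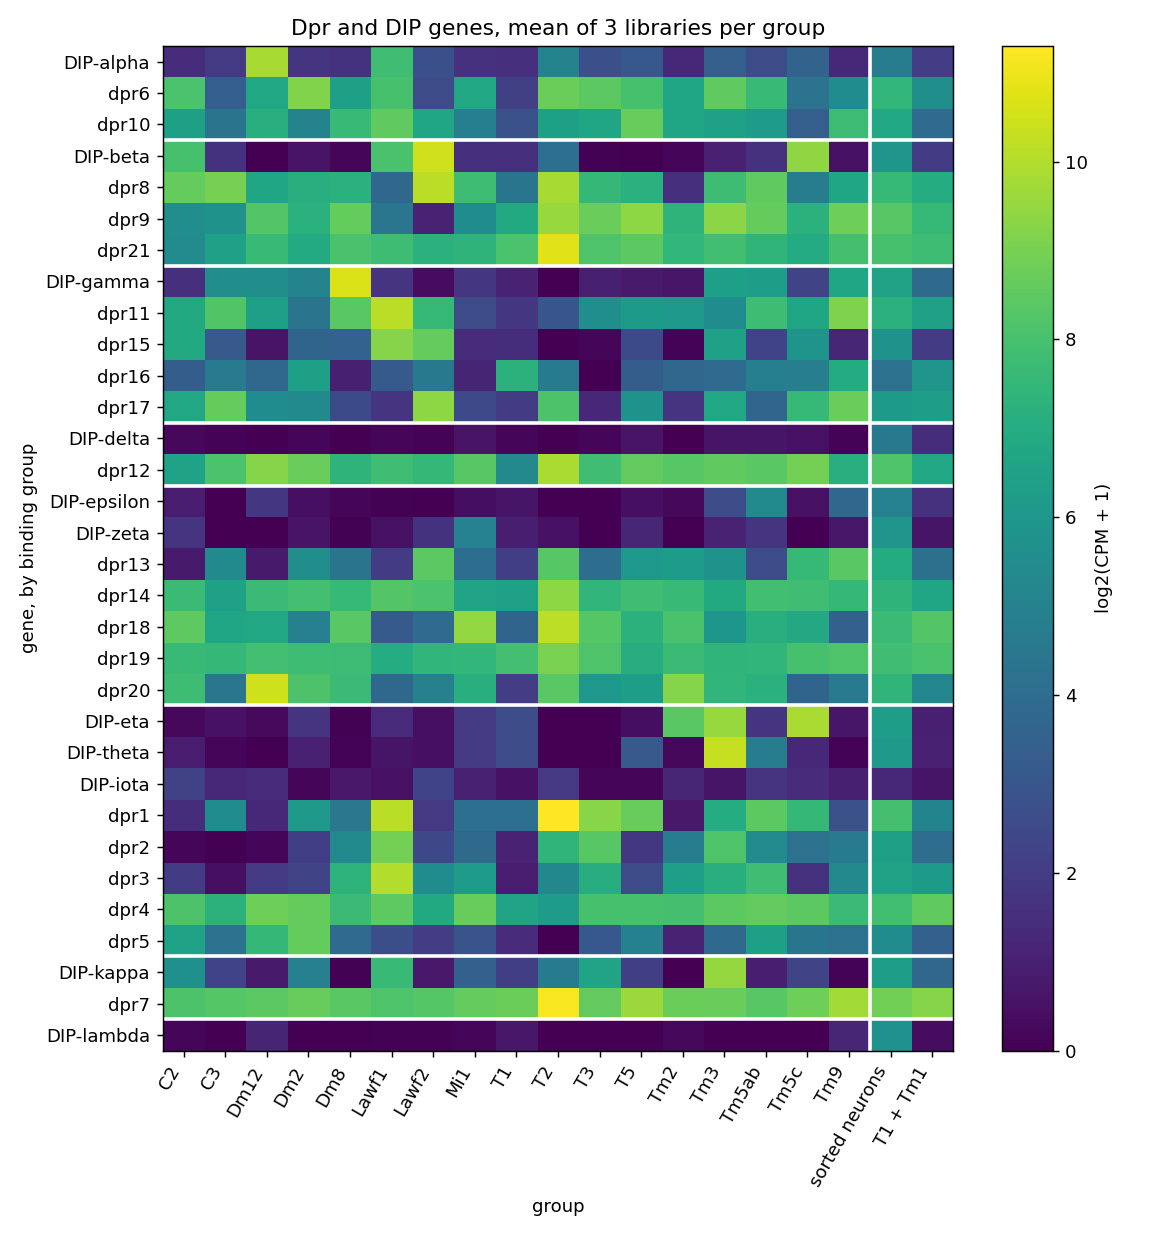
Mean level of each of the 32 genes as log2(CPM + 1) over 3 libraries, by color, with genes in rows ordered by binding group, white lines between the groups, and groups in columns, the 17 types first, then sorted neurons and the mixture. Across the types, DIP rows are dark with a few exceptions, while the rows of dpr4, dpr7, dpr14 and dpr19 are bright throughout.

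Between types, 31 of the 32 genes varied by edgeR's quasi-likelihood F test with Benjamini-Hochberg adjustment at 0.05, as did 91.6% of the 12569 genes tested, so that the share is close to the background. The exception was DIP-delta, with an adjusted p of 0.059 and at most 0.575 CPM in any type. The size of the variation differed more than the call. The SD of log2(CPM + 1) between the 17 types had a median of 2.21 over the Dpr genes, from 0.48 for dpr19 to 3.32 for dpr1, and of 2.39 over the DIP genes, from 0.24 for DIP-delta to 3.67 for DIP-beta.

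**Figure D2:**
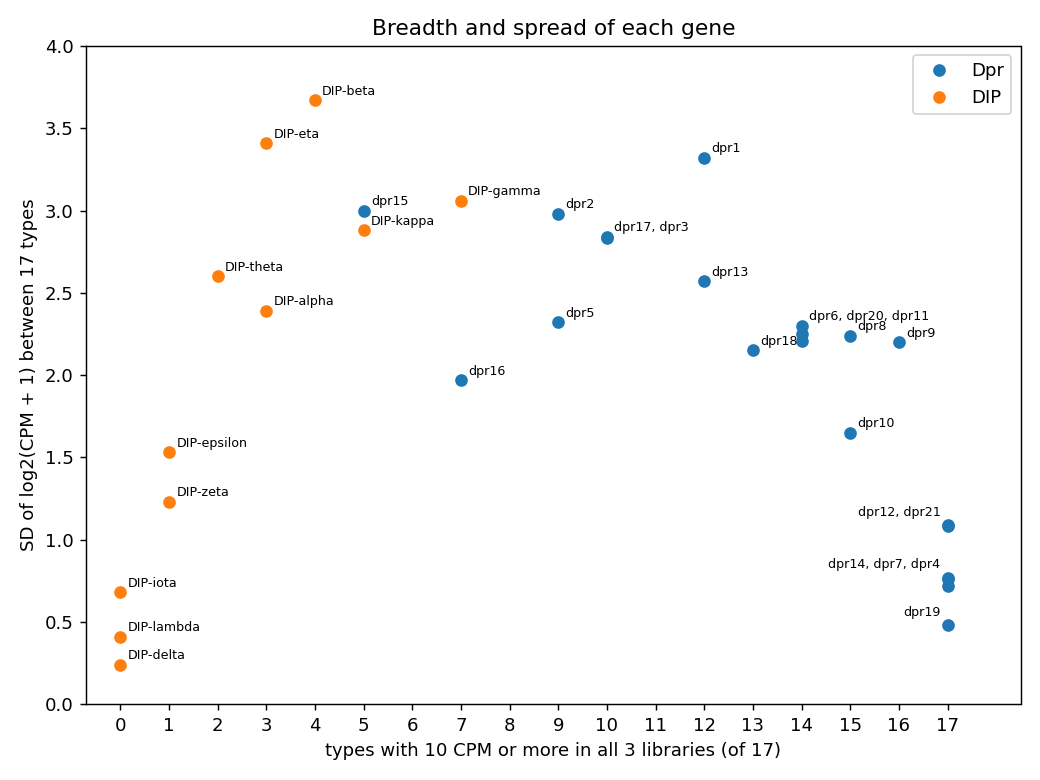
Each point is a gene, with the number of the 17 types in which it was present on the x axis and the SD of log2(CPM + 1) between types on the y axis, Dpr genes in blue and DIP genes in orange. The DIP points lie at 7 types or fewer, and the 6 Dpr genes of 17 types have SDs from 0.48 for dpr19 to 1.09 for dpr21.

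A gene was called in a type when edgeR's test of that type against the mean of the other 16 gave an adjusted p under 0.05 and a log2 fold change of at least 1 in size. There were 155 such calls of a higher level, where the background over all genes and types was 15.5%, and 98 of a lower level, where it was 6.24%. The Dpr genes had 108 higher and 83 lower calls, and the DIP genes 47 higher and 15 lower. For a gene without a read in some type, lower calls elsewhere were hardly possible, because the mean of logs then had no lower limit. dpr5, without a read in T2, was not called lower in Tm2 at 1.09 ± 0.548 CPM (log2 fold change -3.49). Counts of lower calls are therefore not comparable between genes, nor with counts of higher calls. Of the 47 higher calls of DIP genes, 26 were at a present level, and all 26 remained when the libraries of each number were left out in turn, while 6 of the 21 calls below that level did. GEO lists 1 sample per type, so these p-values reflect how the libraries of a sample scatter, and that spread may be technical. Fold changes against types without a read depend on the prior count of the fit and are not bounds, so the levels in the libraries are given first. The SE printed with a fold change is its size divided by the square root of the F statistic. It was not estimated by the fit and gives no interval, above all where a type had no read.

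Among the DIP genes, DIP-alpha (FBgn0052791) encodes the receptor of Dpr6 and Dpr10, which is known from Dm12 neurons in development. Its level was 863, 848 and 1029 CPM in the 3 libraries of Dm12, followed by 211, 254 and 226 in Lawf1 and 19.5, 38.2 and 40.5 in T2. The libraries of these 3 types did not overlap each other, and the remaining types lay lower, led by Tm5c at 11.2 ± 5.73 CPM. DIP-alpha in Dm12 exceeded the other types by a log2 fold change of 7.50 (SE 0.19, edgeR adjusted p 3.69e-32).

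DIP-beta (FBgn0259245), the receptor of Dpr8, Dpr9 and Dpr21, was highest in Lawf2 at 1353, 1553 and 1379 CPM. Tm5c followed at 866, 714 and 449 CPM. Lawf1 at 235, 331 and 219 CPM and C2 at 257, 247 and 267 CPM overlapped and could not be ordered. DIP-beta was thus present in both Lawf types, feedback neurons that project from the medulla to the lamina, but also in Tm5c and C2. Lawf2 was called higher than Lawf1 (log2 fold change 2.45, SE 0.86, edgeR adjusted p 0.0241), and this was lost when the libraries of any 1 number were left out. The call for Lawf2 against the other 16 types had a log2 fold change of 10.03 (SE 0.40, edgeR adjusted p 1.54e-22). Dm12 had no read of the gene, which allows up to 0.0426 CPM from 3 counts over the group.

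DIP-gamma (FBgn0039617), the receptor of Dpr11, Dpr15, Dpr16 and Dpr17, is known from Dm8, an amacrine cell that receives input from the ultraviolet-sensitive photoreceptor R7. Its level was 1460, 1762 and 1813 CPM in Dm8, which per kilobase of exon, at 540.5 CPM per kb, was the highest of any DIP gene in any type. The next type, Tm9, stood at 105, 76.1 and 129 CPM and overlapped with Tm3 at 139.8, 23.1 and 82.3 and with Tm5ab at 60.6, 94 and 75.1. The gene was also present in C3 at 46.3 ± 8.17, Dm12 at 46.7 ± 12.7 and Dm2 at 32.7 ± 6.5 CPM, and its 7 types were the most of any DIP gene. Dm8 exceeded the other types by a log2 fold change of 8.80 (SE 0.32, edgeR adjusted p 1.02e-23).

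DIP-eta, DIP-theta and DIP-iota share the partners Dpr1 to Dpr5. DIP-eta (FBgn0031725) stood at 1244, 692 and 865 CPM in Tm5c and at 638, 603 and 1028 in Tm3, which overlapped, and at 406, 245 and 366 in Tm2, below both. No other type exceeded a mean of 5.32 CPM, the value of T1. The log2 fold change in Tm5c was 10.11 (SE 0.43, edgeR adjusted p 8.24e-21).

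DIP-theta (FBgn0051646) was found at a high level in 1 type. Tm3 had 891, 1279 and 1579 CPM, and Tm5ab, the only other type where it was present, 22.4, 29.1 and 27.8. Its log2 fold change in Tm3 was 11.56 (SE 0.34, edgeR adjusted p 1.37e-26), the largest of any gene of either family in any type. The noncoding gene lncRNA:CR44822 on the same strand covers 12.6% of its exon bases, where reads of the pair cannot be told apart. DIP-iota (FBgn0031837) had its highest mean in Lawf2, at 3.93, 4.43 and 3.08 CPM, and overlapped with C2 at 3.52, 4.95 and 1.98. Without the libraries numbered 2, the calls of DIP-iota in Lawf2 (edgeR adjusted p 0.0646) and C2 (adjusted p 0.116) were lost.

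DIP-kappa (FBgn0051814), whose partner is Dpr7, was highest in Tm3 at 622, 672 and 895 CPM. Lawf1 followed at 204, 219 and 176 CPM and T3 at 124, 107 and 60.4, with no overlap among the 3 types. C2 at 49.9 ± 9.47 and Dm2 at 29.1 ± 7.32 CPM also passed the threshold for presence. Tm3 exceeded the other types by a log2 fold change of 7.93 (SE 0.34, edgeR adjusted p 1.22e-21).

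DIP-epsilon and DIP-zeta share the partners Dpr13, Dpr14, Dpr18, Dpr19 and Dpr20, and each was present in 1 type at a modest level. DIP-epsilon (FBgn0259714) stood at 44.4, 39.8 and 38.9 CPM in Tm5ab and at 16.3, 12.7 and 7.62 in Tm9. DIP-zeta (FBgn0051708) stood at 37.8, 22.7 and 34.2 CPM in Mi1, and the next type, Tm5ab, had a mean of 2.3. Both were higher in those types than in the rest, by log2 fold changes of 7.75 (SE 0.73, edgeR adjusted p 2.35e-10) for DIP-epsilon in Tm5ab and 7.13 (SE 0.65, adjusted p 2.22e-11) for DIP-zeta in Mi1. DIP-delta (FBgn0085420), the receptor of Dpr12 known from the mushroom body, and DIP-lambda (FBgn0267428), for which no partner is listed here, stayed low in all 17 types. Their highest types were Tm5ab for DIP-delta, at 0.0695, 1.58 and 0.0788 CPM, and Tm9 for DIP-lambda, at 0.802, 1.72 and 1.52.

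**Figure D3:**
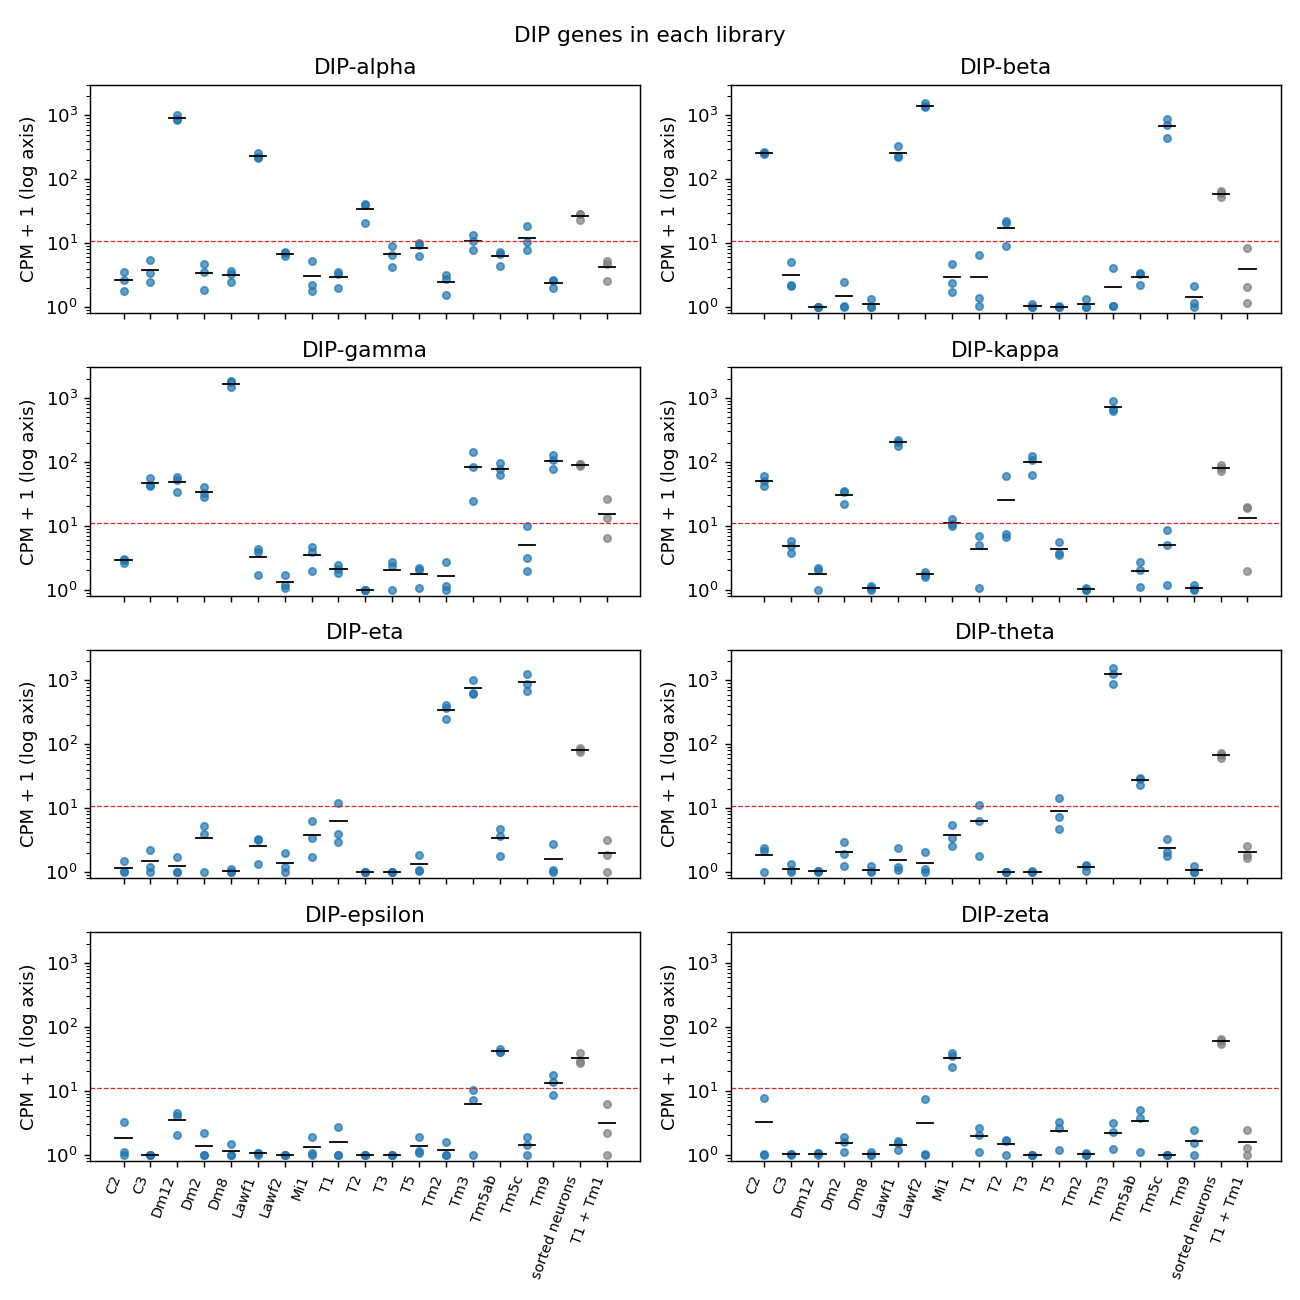
Level of 8 DIP genes in every library as CPM + 1 on a log axis, with types in blue, sorted neurons and the mixture in gray, a black bar at the mean of 3 libraries and a dashed red line at 10 CPM. Most types lie under the line, while DIP-theta rises above 100 CPM in Tm3 alone and DIP-gamma reaches 1460 to 1813 CPM in Dm8.

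Among the ligands of DIP-alpha, dpr6 (FBgn0040823) was highest in Dm2 at 661, 584 and 487 CPM and overlapped with T2 at 607, 396 and 293. It was low in T1 at 1.71, 2.31 and 6.18 and in Lawf2 at 3.53, 4.26 and 7.48 CPM. dpr10 (FBgn0052057) was led by T5 at 359, 391 and 478 CPM and Lawf1 at 381, 426 and 293, which overlapped. T1 was lowest for both genes, with dpr10 at 3.85, 4.04 and 10.2 CPM.

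The ligands of DIP-beta differed in breadth. dpr21 (FBgn0260995) was present in every type, at 2442, 1595 and 1210 CPM in T2 and 354, 348 and 355 in T5. dpr8 (FBgn0052600) stood at 1093, 1161 and 1065 CPM in Lawf2 and 1051, 1158 and 503 in T2, against 3.21, 0.813 and 1.81 in Tm2. Lawf2 thus had the highest mean of both DIP-beta and its ligand gene dpr8, the latter with overlap. dpr9 (FBgn0038282) showed the opposite in that type: it stood at 820.5, 925 and 481 CPM in T2 and at 626, 648 and 709 in T5, which overlapped, but at 0.595, 0.203 and 2.64 in Lawf2. Over the 17 types the correlation of dpr9 with DIP-beta was r = -0.69, the lowest of all 496 pairs of the 32 genes, as a description of types that share their scaling and differ in depth.

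The ligands of DIP-gamma included the Dpr genes present in the fewest types. dpr15 (FBgn0037993) was present in 5 types and stood at 601, 589 and 649 CPM in Lawf1 and 352, 389 and 439.6 in Lawf2, with no overlap. Its log2 fold change in Lawf1 was 7.46 (SE 0.34, edgeR adjusted p 3.8e-21). dpr16 (FBgn0037295) was highest in T1, at 153, 165 and 144 CPM, ahead of Tm9 at 110.3, 114 and 141, and it was the 1 Dpr gene called higher in T1 (log2 fold change 3.96, SE 0.19, edgeR adjusted p 2.74e-23). dpr17 (FBgn0051361) stood at 703, 668 and 605 CPM in Lawf2 and at 382, 336 and 528 in Tm9. dpr11 (FBgn0053202), known from the R7 photoreceptors that contact Dm8, was highest in Lawf1 at 1222, 1241 and 933 CPM, above Tm9 at 758, 354 and 547, and it stood at 373, 314 and 344 in Dm8 itself. In Dm8, dpr11 was the only ligand gene of DIP-gamma that met the threshold for presence. dpr15 missed it narrowly there, at 14.2, 8.87 and 9.16 CPM, while dpr17 stood at 4.78 ± 1.37 and dpr16 at 0.982 ± 0.824.

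dpr12 (FBgn0085414), the ligand of DIP-delta, was present in all 17 types although its receptor gene was in none. It stood at 1093, 972 and 712 CPM in T2 and at 593, 628 and 620.3 in Dm12, and was lowest in T1 at 30.8, 41.8 and 42.6.

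Among the ligands of DIP-epsilon and DIP-zeta, dpr14 (FBgn0029974) and dpr19 (FBgn0032233) were broad. dpr14 stood at 821, 767 and 386 CPM in T2 and 308, 306 and 320.5 in Lawf1, and dpr19, the gene of least variation among the Dprs, at 501, 579 and 484 in T2 and 294, 302 and 277 in T3. dpr19 was lowest in Lawf1 and T5, with 132, 128 and 121 CPM in Lawf1 and 117, 143 and 125 in T5.

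dpr13, dpr18 and dpr20 were present in 12, 13 and 14 types and ranged more widely. dpr20 (FBgn0035170) stood at 1216, 1572 and 1559 CPM in Dm12, above Tm2 at 717, 381 and 729.8, and at 0.878, 2.53 and 6.01 in T1. Its log2 fold change in Dm12 was 4.38 (SE 0.16, edgeR adjusted p 1.51e-26). dpr18 (FBgn0030723) was led by T2 at 1482, 1293 and 709.9 CPM and Mi1 at 725, 764 and 622, which overlapped. Mi1 was also the type of DIP-zeta, a receptor of Dpr18. dpr13 (FBgn0034286) stood at 375, 371 and 314 CPM in Lawf2 and 313, 359 and 343 in Tm9, which overlapped, and at 0.519, 0.656 and 1.15 in Dm12.

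The ligands shared by DIP-eta, DIP-theta and DIP-iota held the Dpr gene of widest range. dpr1 (FBgn0040726) stood at 3172, 2863 and 1532 CPM in T2, then at 976, 1294 and 1072 in Lawf1, and at 0.694, 0.929 and 0.53 in Tm2. dpr2 (FBgn0261871) and dpr3 (FBgn0053516) were both highest in Lawf1, dpr2 at 514, 561 and 388 CPM, ahead of T3 at 308, 377 and 303, and dpr3 at 1002, 1147 and 948, ahead of Tm5ab at 205, 241 and 226. Their levels over the 17 types had r = 0.84, the highest of all 496 pairs, whose median was 0.06. The log2 fold change of dpr3 in Lawf1 was 5.96 (SE 0.18, edgeR adjusted p 5.92e-30).

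dpr5 (FBgn0037908) stood at 449, 355 and 387 CPM in Dm2 and 176, 176 and 195 in Dm12, without overlap (log2 fold change in Dm2 5.58, SE 0.17, edgeR adjusted p 3.56e-30). T2 had no read of dpr5, which allows up to 0.47 CPM. dpr4 (FBgn0053512) was led by Dm12 at 399, 482 and 457 CPM and Mi1 at 439, 423 and 373, which overlapped, and was lowest in T2 at 89.4, 96.6 and 38.1. No type was called higher, and 3 were called lower by edgeR, T2 (log2 fold change -1.73), T1 (-1.40) and Lawf2 (-1.12). The antisense gene asRNA:CR45056 covers 15.7% of its exon bases, and the kits used do not mark strand, so those reads cannot be told apart. dpr7 (FBgn0053481), the ligand of DIP-kappa, was present everywhere, at 2996, 2068 and 1951 CPM in T2, at 713, 1190 and 680.1 in Tm9 and at no less than a mean of 281 in any type.

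The place of T2 in these orders depends on the scaling. With TMM or RLE factors, 8 Dpr genes were highest in T2 (dpr1, dpr7, dpr9, dpr12, dpr14, dpr18, dpr19 and dpr21), and with CPM from total counts alone 4 were (dpr1, dpr7, dpr14 and dpr21).

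The 17 types held 17 different sets of present genes, 17 different sets of Dpr genes and 14 different sets of DIP genes. How many sets another list of 32 genes would give was not tested. Some differences rest on values near the threshold, such as dpr6 in C3 at 7.49, 11.3 and 9.71 CPM. Pairs of types differed in 2 to 15 of the 32 genes with a median of 8 over the 136 pairs, and the nearest were C3 and Dm2. T1 had the fewest, 10 Dpr genes and no DIP gene, and Tm3 the most, 19 Dpr and 4 DIP genes. T5, like T1, had no DIP gene at the threshold for presence but held 17 Dpr genes. One DIP gene was present in 8 types: DIP-gamma in C3, Dm8 and Tm9, DIP-beta in Lawf2, DIP-zeta in Mi1, DIP-alpha in T2, DIP-kappa in T3 and DIP-eta in Tm2. Pairs of DIP genes were found in C2 (DIP-beta and DIP-kappa), Dm12 (DIP-alpha and DIP-gamma), Dm2 (DIP-gamma and DIP-kappa) and Tm5c (DIP-beta and DIP-eta). Lawf1 held DIP-alpha, DIP-beta and DIP-kappa, Tm5ab held DIP-gamma, DIP-epsilon and DIP-theta, and Tm3 held DIP-gamma, DIP-eta, DIP-theta and DIP-kappa.

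**Figure D4:**
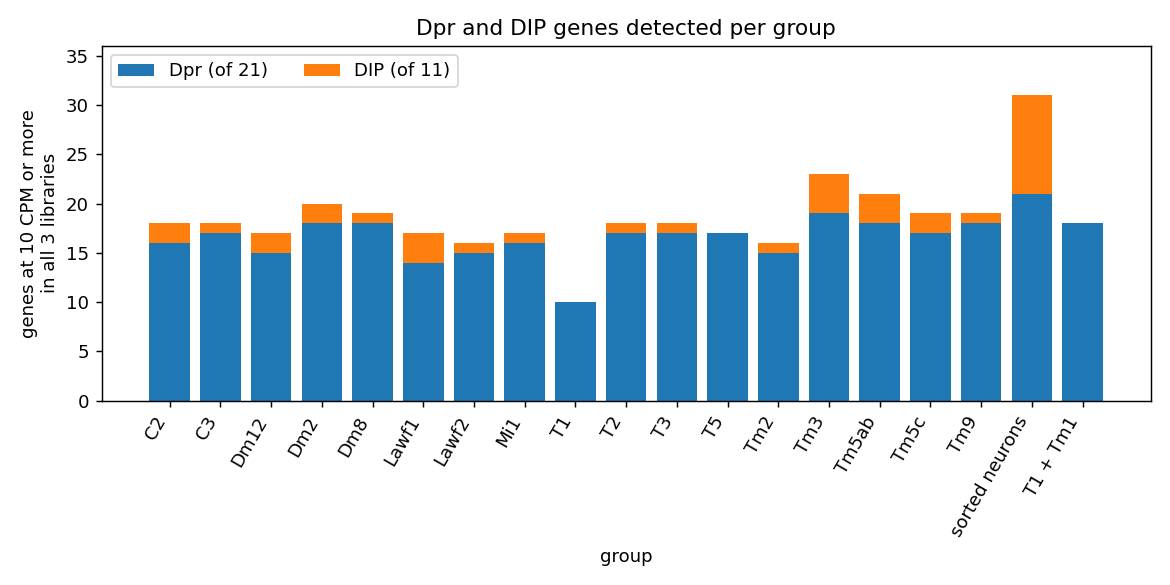
Number of genes at 10 CPM or more in all 3 libraries of each group, stacked as Dpr genes in blue, of 21, and DIP genes in orange, of 11. T1 has 10 genes, Tm3 has 23 and sorted neurons have 31.

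Per kilobase of exon, a scale that rests on the annotated exon lengths, the summed level of the Dpr genes ran from 808 CPM per kb in T1 to 5824 in T2 with a median of 1312. With plain CPM in place of TMM, an alternative chosen after seeing the data, the T2 sum was 3240 and the next, that of T5, 1782. The summed level of the DIP genes ran from 5.47 CPM per kb in T5 to 900.1 in Tm3 with a median of 51.4. The DIP sum was below the Dpr sum in every type. dpr7 had the highest level per kb of the Dpr genes in 10 types, among them Tm9 at 568 CPM per kb, where it made up 34.4% of the Dpr sum. In 3 types, Dm8, T2 and T3, dpr21 led, and its 1762 CPM per kb in T2 (974 with plain CPM) was the highest of any Dpr gene. dpr21 and dpr7 have the shortest annotated exons of the Dpr genes, 0.99 and 1.51 kb, and their ranks depend on these lengths. By CPM without division by length, dpr8 at 506 ± 32 exceeded dpr7 at 315 ± 52.9 in C3. The others were led by dpr20 in Dm12 at 533 CPM per kb, dpr3 in Lawf1 at 327, dpr18 in Mi1 at 267 and dpr8 in Lawf2 at 223.

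The share of the 32 genes called in either direction exceeded the background in every type, by the counts that follow, with no test of the list. The limit on lower calls given above applies to them. These counts include higher calls of DIP genes below the threshold for presence, in C2, Dm12, Lawf2, Mi1, T1, T2, T5, Tm3, Tm5ab and Tm9. In T5 they were DIP-delta, DIP-zeta and DIP-theta, at means of 0.491, 1.34 and 7.89 CPM, and in T1 DIP-eta, DIP-theta and DIP-lambda. Of these, DIP-delta and DIP-zeta in T5 and DIP-eta and DIP-lambda in T1 lost their calls when libraries of some number were left out. T1 had 4 higher and 15 lower calls, 59.4% of the genes against a background of 24.2%, and 14 of the 15 lower calls were Dpr genes, dpr3 and dpr20 among them. Tm3 had 15 higher and no lower calls, 46.9% against 13.3%, including 6 DIP genes, of which DIP-delta and DIP-epsilon were below the threshold for presence. Among the Dpr genes in Tm3, dpr14 (log2 fold change -0.80, edgeR adjusted p 3.89e-06) and dpr18 (-0.72, adjusted p 0.0231) were lower by less than the fold threshold. With dpr19 (-0.35, adjusted p 0.073), 3 genes lay lower at an unadjusted p under 0.05, and none was called lower by DESeq2. Tm9 had 11 higher and 6 lower calls, 53.1% against 12.9%, and Tm5ab 14 and 2, 50% against 16.6%. Dm12 had 9 and 6, 46.9% against 15.9%, and Dm8 8 and 5, 40.6% against 15.2%.

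C2 had 11 higher and 8 lower calls, 59.4% against 30%, Lawf2 10 and 8, 56.2% against 25.1%, and Lawf1 10 and 6, 50% against 37.5%. In C3 there were 5 and 9, 43.8% against 23%, in Mi1 4 and 8, 37.5% against 14.2%, and in Dm2 6 and 6, 37.5% against 14.2%. Tm5c had 7 and 5, 37.5% against 24.7%, Tm2 6 and 5, 34.4% against 13.9%, T5 9 and 2, 34.4% against 23.8%, and T3 7 and 2, 28.1% against 14.2%. T2 had 19 and 5, 75% against 50.9%, and the median log2 fold change of the 32 genes there was 1.84 while that of all genes was -1.26.

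Types that share a name stem or a visual pathway were compared in pairs with the same test, and up to 4 genes of largest change are named. C2 and C3 are feedback neurons from the medulla to the lamina. C3 differed from C2 in 18 of the 32 genes, 7 higher and 11 lower, where 7.88% of all genes were called. DIP-beta stood at 4.1, 1.18 and 1.25 CPM in C3 and 257, 247 and 267 in C2 (log2 fold change -6.90, SE 1.07, edgeR adjusted p 6.69e-06). dpr6 followed it, at 7.49, 11.3 and 9.71 CPM in C3 against 262, 255 and 302 in C2, a change of -4.84 (SE 0.36, adjusted p 2.85e-15). dpr13 went the other way, at 39.1, 38 and 42.3 CPM in C3 and 0.21, 0.196 and 1.94 in C2 (5.60, SE 0.56, adjusted p 7.27e-11). The call of DIP-zeta (-6.16, SE 1.96, adjusted p 0.0339) came from 1 C2 library at 6.79 CPM, the others being 0 and 0.0393, and without the libraries numbered 3 its change was 0.02.

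Lawf2 differed from Lawf1 in 17 genes, 6 higher and 11 lower, with a background of 25.8%. dpr1 separated them most, at 976, 1294 and 1072 CPM in Lawf1 and 4.09, 3.05 and 0.792 in Lawf2 (-8.71, SE 0.62, edgeR adjusted p 4.09e-15). DIP-kappa was also a gene of Lawf1, at 204, 219 and 176 CPM against 0.913, 0.569 and 0.704 (-8.09, SE 1.03, adjusted p 4.01e-08). dpr17 and dpr13 were genes of Lawf2: dpr17 stood at 703, 668 and 605 CPM against 4.8, 2.17 and 0.0705 (8.11, SE 0.53, adjusted p 5.53e-17), and dpr13 at 375, 371 and 314 against 4.74, 2.17 and 1.9 (6.90, SE 0.57, adjusted p 2.23e-13).

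Tm5c and Tm5ab are transmedullary neurons of the color pathway. Tm5c differed from Tm5ab in 16 genes, 5 higher and 11 lower, with a background of 10.1%. DIP-eta stood at 1244, 692 and 865 CPM in Tm5c and 0.765, 3.68 and 2.68 in Tm5ab (8.63, SE 1.18, edgeR adjusted p 1.02e-06), and DIP-beta at 866, 714 and 449 against 2.36, 1.21 and 2.48 (8.38, SE 1.14, adjusted p 6.43e-07). dpr3 was lower in Tm5c, at 2.54, 1.09 and 2.55 CPM against 205, 241 and 226 (-6.78, SE 0.54, adjusted p 2.34e-13). DIP-zeta had no read in Tm5c, which allows 0.0614 CPM, and 0.104, 4.04 and 2.76 in Tm5ab, and its call (adjusted p 0.0261) was lost without the libraries numbered 1 or 2.

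Dm12 differed from Dm8 in 16 genes, 8 in each direction, with a background of 9.99%. DIP-alpha stood at 863, 848 and 1029 CPM in Dm12 and 2.31, 2.72 and 1.48 in Dm8 (8.72, SE 0.61, edgeR adjusted p 1.22e-15). dpr2 was at 0, 0 and 0.355 CPM in Dm12 and 44.6, 38.7 and 39.5 in Dm8 (-8.41, SE 0.85, adjusted p 1.6e-10), and dpr3 at 5.15, 1.88 and 1.46 against 157, 176 and 134 (-5.77, SE 0.51, adjusted p 1.34e-12). DIP-lambda, at 0, 1.22 and 2.44 CPM in Dm12 with no read in Dm8, lost its call (adjusted p 0.0298) without the libraries numbered 2 or 3.

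Tm9 and Tm2 both carry input to T5 in the pathway for moving dark edges, and Tm9 differed from Tm2 in 17 genes, 12 higher and 5 lower, with a background of 12.7%. Each had a DIP gene at the threshold for presence that the other lacked, and both genes were higher in other types. DIP-eta stood at 406, 245 and 366 CPM in Tm2 and 1.76, 0 and 0.082 in Tm9 (-9.01, SE 1.24, edgeR adjusted p 6.25e-07), and DIP-gamma at 0.13, 1.74 and 0 in Tm2 and 105, 76.1 and 129 in Tm9 (7.51, SE 0.96, adjusted p 1.08e-07). dpr17, whose product binds DIP-gamma, was high with it in Tm9, at 382, 336 and 528 CPM against 1.99, 2.32 and 2.6 (7.49, SE 0.51, adjusted p 3.26e-16). DIP-epsilon, at 16.3, 12.7 and 7.62 CPM in Tm9 and 0, 0.581 and 0 in Tm2, lost its call (adjusted p 0.0209) without the libraries numbered 1 or 3.

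T5, which detects motion, differed from T3 in 14 genes, 9 higher and 5 lower, with a background of 18%. dpr2 stood at 308, 377 and 303 CPM in T3 and 5.54, 1.8 and 0.227 in T5 (-7.01, SE 0.69, edgeR adjusted p 1.17e-10). dpr16 stood at 8.17, 7.17 and 11.6 CPM in T5 and 0.0382, 0 and 0.0392 in T3 (8.10, SE 0.68, adjusted p 2e-13). DIP-theta stood at 3.81, 6.29 and 13.6 CPM in T5 and 0, 0 and 0.0392 in T3 (8.67, SE 1.37, adjusted p 6.04e-06), and DIP-zeta, with no read in T3 and at most 2.2 CPM in T5, lost its call (adjusted p 0.0186) without the libraries numbered 1 or 2.

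T3 differed from T2 in 19 genes, 5 higher and 14 lower, with a background of 47.8% and the low TMM factors of T2 given above. dpr17 stood at 1.19, 1.07 and 1.84 CPM in T3 and 289, 386 and 164 in T2 (-7.69, SE 0.52, edgeR adjusted p 4.84e-17). dpr16 stood at 0.0382, 0 and 0.0392 CPM against 45.9, 15.1 and 9.53 (-9.70, SE 0.69, adjusted p 9.09e-17), and DIP-beta at 0, 0 and 0.118 against 20.1, 7.93 and 21.4 (-8.45, SE 1.60, adjusted p 2.07e-05). dpr5 was at 7.96, 10.3 and 4.98 CPM in T3, where T2 had no read (adjusted p 1.66e-07).

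Ligand and receptor genes were then set beside each other with 36 binding links between 10 DIPs and their Dprs, taken from general knowledge of the field. In all 26 combinations of a DIP gene and a type where it was present, at least 1 partner Dpr gene was present in the same type, and in 12 every partner was. The same held for 142 of the 144 combinations where the DIP gene was absent, so the presence of a partner was no mark of the DIP types. Levels of partners over the 17 types had a median r of -0.00, from -0.69 to 0.41, beside 0.12 for pairs of the same family, and the highest among partners was that of dpr11 with DIP-gamma. Of all pairs of a Dpr and a DIP gene, the highest was r = 0.76, for dpr15 with DIP-beta, which are not linked here.

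Types known to be connected (Tm2 and T5, Tm9 and T5, Dm8 and Tm5c, and Dm8 and Tm5ab) were searched for a DIP gene in one and a partner in the other. Tm2 and T5 had 3 such links, all from DIP-eta in Tm2 at 339 ± 83.7 CPM to dpr1 at 413 ± 82.5, dpr4 at 261 ± 19.4 and dpr5 at 30 ± 3.42 in T5. Tm9 and T5 had 2, from DIP-gamma in Tm9 at 103 ± 26.2 CPM to dpr11 at 69.4 ± 12.4 and dpr17 at 52.4 ± 6.06 in T5. No DIP gene was counted as present in T5, although DIP-theta, at 3.81, 6.29 and 13.6 CPM, was called higher there (log2 fold change 3.79, SE 0.51, edgeR adjusted p 8.03e-08) and DIP-alpha stood at 5.27, 8.4 and 8.98. These counts rest on the threshold of 10 CPM: at 3 CPM the links of Tm2 and T5 were 9 and those of Tm9 and T5 were 14.

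Dm8 and Tm5c had 12 links. DIP-gamma in Dm8 met all of its ligand genes in Tm5c, dpr11 at 101 ± 19.8, dpr15 at 56.2 ± 5.73, dpr16 at 27.1 ± 9.49 and dpr17 at 192 ± 8.46 CPM. In the other direction DIP-beta of Tm5c met dpr8, dpr9 and dpr21 in Dm8, with dpr9 at 395 ± 54.2 CPM, and DIP-eta met dpr1 to dpr5, with dpr4 at 208 ± 11.3. Dm8 and Tm5ab had 13 links, 11 of them from DIP genes of Tm5ab. Over all 136 pairs of types the number of links at 10 CPM had a median of 7. It ran from 0 to 25, the latter for Tm3 and Tm5ab. At that threshold the connected pairs named above lay on both sides of the median. The 136 pairs were not divided by whether the types are connected. These counts do not include whether cells touch.

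Sorted neurons held nearly the whole of both families, with 21 Dpr and 10 DIP genes present and DIP-iota as the exception at 1.37 ± 0.565 CPM. Against the mean of the 17 types on the log scale, 21 of the 32 genes were higher, 11 Dpr and 10 DIP genes, where 12.4% of all genes were, and 0 were lower, where 2.67% were. None was lower at an unadjusted p under 0.05 or by DESeq2. For genes without a read in some type, a lower call by edgeR's test was hardly possible here too. A mean of logs is low for genes found in few types, and against the arithmetic mean of the types 7 of the 21 lay higher and 14 lower. The calls of dpr6 and dpr11 were lost without the libraries numbered 1, and that of dpr11 also without those numbered 3 (edgeR adjusted p 0.107). DIP-alpha, for example, stood at 26.2 ± 3.15 CPM in sorted neurons against an arithmetic mean of 72.8 over the types, and DIP-beta at 58.9 ± 7.01 against 156.

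For 3 DIP genes, every library of sorted neurons lay above every library of the 17 types. DIP-lambda stood at 58, 43.5 and 53.1 CPM in sorted neurons and at a mean of 1.34 in its highest type, Tm9 (log2 fold change 10.57, SE 0.66, edgeR adjusted p 5.49e-13). DIP-delta stood at 24.9, 15.2 and 27.4 CPM against 0.575 in Tm5ab (7.97, SE 0.69, adjusted p 3.01e-12). DIP-zeta stood at 59.2, 52.2 and 62.4 CPM against 31.6 in Mi1 (7.58, SE 0.62, adjusted p 1.41e-12).

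**Figure D5:**
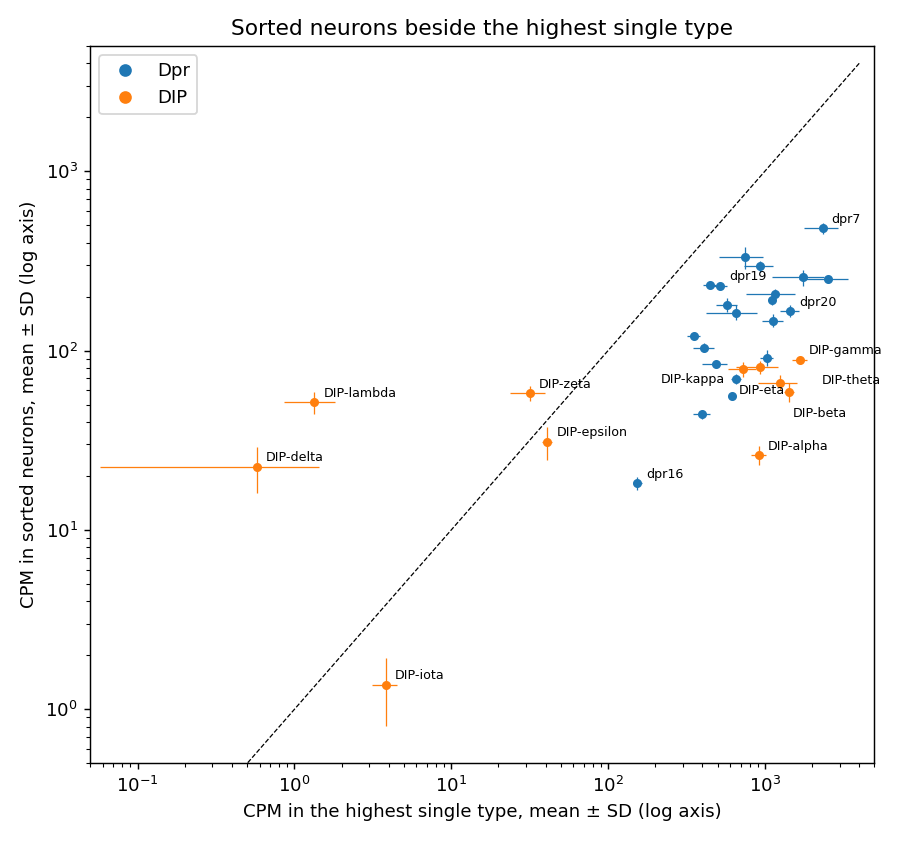
Mean level of each gene in its highest single type on the x axis and in sorted neurons on the y axis, in CPM on log axes, with bars for the SD of 3 libraries and a dashed line of equality. DIP-lambda, DIP-delta and DIP-zeta lie above the line and the other genes below it, and the left bar of DIP-delta, whose SD exceeds its mean, is cut short.

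The mixture of T1 and Tm1 was compared with T1 alone, to which it adds Tm1. It held 18 Dpr genes and no DIP gene at the threshold for presence. DIP-gamma, at 25, 12.2 and 5.33 CPM, and DIP-kappa, at 17.8, 18.3 and 0.969, missed it only in library 3, which had 6.147 M reads. Relative to T1, 14 genes were higher, where 13.2% of all genes were, and 2 were lower, where 5.55% were. dpr3 stood at 57.2, 82.3 and 73.7 CPM in the mixture and 1.56, 0.444 and 0.479 in T1 (6.43, SE 0.55, edgeR adjusted p 3.09e-13). dpr11 stood at 112, 90.3 and 63.7 CPM against 1.12, 4.31 and 1.87 (5.18, SE 0.60, adjusted p 2.73e-09), and dpr18 at 376, 297 and 258 against 7.02, 12.5 and 14.8 (4.76, SE 0.36, adjusted p 3.53e-15). dpr16, the 1 Dpr gene called higher in T1, was lower in the mixture by 1.40 (SE 0.37, edgeR adjusted p 0.00369). Its level was 60.5, 61.2 and 53 CPM there against 153, 165 and 144 in T1. The call of DIP-gamma as higher (adjusted p 0.000589) was lost without the libraries numbered 1, and that of DIP-theta as lower (adjusted p 0.0356) without those numbered 2 or 3.

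In the genome build BDGP6, with coordinates of the Ensembl annotation, the 32 genes lie on chromosome arms 2L (9 genes), 2R (5), 3L (4) and 3R (8), on chromosome 4 (1) and on X (5). They span 3.7 to 379.1 kb with a median of 32.55 kb. Neighbours within 100 kb formed 4 pairs. dpr5 (3R, 11499984 to 11505951) and dpr4 (3R, 11533483 to 11542949) lie 27.5 kb apart, with r = 0.66 over the 17 types. DIP-eta (2L, 5601723 to 5617946) and DIP-theta (2L, 5626291 to 5658560) lie 8.3 kb apart, with r = 0.50, and share Tm3 as a type of high level. dpr6 and dpr10, both ligands of DIP-alpha, lie 8.1 kb apart on 3L with r = 0.51, and dpr17 and dpr15, both ligands of DIP-gamma, 27.4 kb apart on 3R with r = 0.26.

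Of 10 other immunoglobulin or Dpr-binding proteins listed as relatives, 7 varied between types by edgeR's F test, where 91.6% of all genes did. klg, a homophilic adhesion gene, reached 3011 ± 87.1 CPM in Tm5ab and Lac 403 ± 4.77 in T1. tutl reached 9039 ± 1919 CPM in T2, where levels depend on the scaling. ImpL2 and cDIP, whose product is a secreted binder of Dprs and DIPs, did not pass the F test (adjusted p 0.505 and 0.375) and stayed at or below means of 1.3 and 3.22 CPM, though ImpL2 was called higher in 1 type. Ama, at or below a mean of 0.21 CPM, was removed by the filter and not tested.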

How the data were processed

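The authors deposited raw counts of reads for 17558 genes, in 3 numbered libraries for each of 19 groups. The labels' protocols name the SMART-Seq v4 kit for cDNA and Nextera XT for libraries. Trimmomatic 0.32, STAR 2.5.2 and HTSeq 0.6.1 are named in the submitters' processing notes, as is build BDGP6. The annotation and strand setting of the counting are not given in the sources used here. Summary lines of the counting were left out: reads in no gene were 40.47 to 49.19% of each library, ambiguous reads 0.75 to 1.69% and reads not unique 7.15 to 23.29%.

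Counts were fitted with edgeR 4.0.16 (R 4.3.3) by robust quasi-likelihood, each group of the 57 libraries having its own coefficient, after filterByExpr, which left 12569 genes, and TMM scaling. P-values were adjusted over all genes tested. Libraries of a sample differed beyond sampling noise in all 57 pairs (chi-square per degree of freedom 11.6 to 270.1) and each was used as a unit. Floors allow 3 counts over a group and cover counting error only, because without molecular identifiers a read is not a separate molecule. Exon lengths, coordinates and overlaps came from the Ensembl annotation, and levels per kb divide CPM by exon length. Tables and figures used Python 3.11.15, numpy 2.4.6, pandas 2.3.3 and matplotlib 3.10.9.

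Values in every library are given for each DIP gene in its leading types and for each Dpr gene in its highest and next type, and pairs name up to 4 genes of largest change past the threshold. Binding partners and connected types came from general knowledge of the field. The genes, lists and comparisons were chosen with earlier results of these data known. Alternatives were RLE factors, DESeq2 1.42.0, no filter, a replicate block, other thresholds for presence, and leaving out libraries. Protein and gene sequences were not used here.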

Additional observations from a re-analysis of the deposited data

How the results depend on the processing

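Counts of calls stayed within 1.5 times their value under RLE factors, DESeq2, no filter, a replicate block and the omission of T2 or of libraries. Leaving out the libraries of 1 number, or 1 T2 library, gave 29 to 31 varying genes, 149 to 157 higher and 86 to 99 lower calls in single types, 20 to 22 higher and 0 lower in sorted neurons, 14 to 18 in the mixture and 102 to 118 in the 7 pairs. Present combinations were 307 to 310 when the libraries of 1 number were left out. DESeq2 gave 141 lower calls against 98. At 3 CPM in place of 10, the links of Tm2 with T5 rose from 3 to 9 and those of Tm9 with T5 from 2 to 14, and at 30 CPM those of Dm8 with Tm5ab fell from 13 to 6. With T2 left out, 303 present combinations became 285. Calls of lowly expressed DIP genes were the least stable: DIP-delta in Tm5ab had an adjusted p of 0.196 in DESeq2, 0.058 with the block and 0.669 without the libraries numbered 2, and DIP-lambda in Tm9 had 0.172 in DESeq2. Of the Dpr calls at a present level, 99 of 107 higher and 22 of 29 lower ones were kept in all 3 omissions of a number.

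The replicate block used the library numbers of the columns. It gave 31 varying genes, 155 higher and 96 lower calls in single types, 21 in sorted neurons, 16 in the mixture and 116 in the pairs. Deviations of libraries with the same number had a median r of 0.00 between groups (513 pairs) and others of -0.00 (1026 pairs), so the numbers were not taken to pair the libraries. T2, with 0.602 M reads in its smallest library, has the highest floor, 0.47 CPM.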
